A study of Mus musculus with 2 samples.

Results

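Matrix metalloproteinases are the enzymes that cut collagen, gelatin, proteoglycans and other proteins of the extracellular matrix, and the tissue inhibitors of metalloproteinases (TIMPs) are the proteins that bind and block them. 10 genes of this system were examined, 7 proteases (Mmp2, Mmp3, Mmp9, Mmp13, Mmp14, Mmp19 and Mmp23) and 3 inhibitors (Timp1, Timp2 and Timp3), chosen by symbol out of 32285 genes in the files, of which 24161 had at least 1 read-out molecule in the cells kept. All 10 were found, and 16 further Mmp and Timp genes in the files are described more briefly. The data are single-cell RNA-seq of the enthesis, the attachment of the Achilles tendon to bone, dissected from SKG mice, a strain that carries a Zap70 mutation and is prone to autoimmune arthritis. 1 library came from tail suspension (TS), in which the hind limbs are held off the ground and unloaded, and 1 from non-tail suspension (NTS), in which they bear weight. The tissue of both was digested with collagenase and depleted of red cells and dead cells. The age and sex of the mice, the number pooled in a library and any agent given to induce disease are not given in the sources used here.

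With 1 library in each condition there is no replicate, so no test of a difference between the conditions was made, and the intervals given are 95% counting intervals that cover the sampling of molecules only. The unit is the UMI (unique molecular identifier), a count of captured transcript molecules. Because a UMI counts 1 molecule whatever the length of its transcript, levels of different genes are set side by side without a length correction, though capture can differ between genes. A level is given in CPM, the UMIs of a gene per 1000000 UMIs of a cell type in a library, and a log2 ratio is that of the TS level over the NTS level.

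Metalloproteinases are made as inactive precursors that are activated by removal of a propeptide, and the active enzymes are blocked by TIMPs bound in the catalytic cleft. Mmp13 encodes the main interstitial collagenase of rodents, Mmp2 and Mmp9 the gelatinases, and Mmp3 stromelysin-1, which degrades proteoglycans and activates other proteases of the family. Mmp14 encodes a membrane-bound collagenase that activates the Mmp2 product at the cell surface, in a complex that includes the Timp2 product. Mmp19 encodes a secreted protease, and Mmp23 a membrane-anchored protease that is released by cleavage. Timp1 and Timp2 encode soluble inhibitors, and Timp3 an inhibitor that binds to the matrix and also blocks aggrecan-cleaving ADAMTS proteases. In tendon these enzymes take part in the turnover of a matrix that consists mostly of type I collagen.

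The cells kept numbered 13991 in the TS library and 10819 in the NTS library, with a median of 8363 UMIs per cell in TS and 4653 UMIs in NTS. The libraries shared 47 barcode sequences. Clustering without any gene of the Mmp, Timp and ADAM families gave 32 clusters, and those whose leading genes matched a marker list were named "X-like". The fibroblast lineage joined 9 clusters, fibroblast-like, tenocyte-like (tendon cells) or like the fibroblasts of sheath and lining, with 6491 cells in TS and 2032 cells in NTS. The 2 libraries filled this lineage with different clusters. Of the TS cells, 1313 lay in cluster 24 (led by Cxcl14 and Apod), 1211 in cluster 8 (Prg4), 1120 in cluster 3 (Myoc), 1081 in cluster 23 (Pi16), 878 in cluster 1 (Cxcl5 and Fbn1) and 606 in cluster 21 (Angptl7 and Clu). Of the NTS cells, 932 lay in cluster 0 (Thbs4 and Col1a1) and 543 in cluster 2 (Cxcl5 and Ccn5). The summed level of 10 tenocyte markers in the lineage was 1819 CPM in TS and 4518 CPM in NTS, and that of 8 sheath or lining markers was 32521 CPM in TS and 6498 CPM in NTS. A level pooled over the lineage therefore mixes a difference within cells with a difference in which cells were sampled, and the values within clusters are given beside it.

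The stretch of 120 bases just before the start of transcription is shown for Mmp3, Mmp13, Mmp14 and Timp1, because the first pair, a stromelysin and a collagenase on the same chromosome, were past 2-fold lower in the TS lineage, and the second pair, a protease and an inhibitor, differed by less than 2-fold. The sequences are those of RefSeq on build GRCm38.p6, on the plus strand at chr9:7445702-7445821 (Mmp3), chr9:7272394-7272513 (Mmp13), chr14:54431478-54431597 (Mmp14) and chrX:20870046-20870165 (Timp1). Capitals mark the motifs searched on both strands.
Mmp3: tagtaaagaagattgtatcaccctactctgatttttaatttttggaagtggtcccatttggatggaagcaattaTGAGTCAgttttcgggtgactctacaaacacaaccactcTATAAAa
Mmp13: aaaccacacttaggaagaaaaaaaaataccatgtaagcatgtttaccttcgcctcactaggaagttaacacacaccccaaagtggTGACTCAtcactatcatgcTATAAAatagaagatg
Mmp14: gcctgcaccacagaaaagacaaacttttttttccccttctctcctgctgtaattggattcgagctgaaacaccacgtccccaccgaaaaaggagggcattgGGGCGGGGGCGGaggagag
Timp1: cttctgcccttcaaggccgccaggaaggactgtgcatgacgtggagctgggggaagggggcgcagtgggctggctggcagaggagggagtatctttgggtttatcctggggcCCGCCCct

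The Mmp3 and Mmp13 stretches each held the AP-1 motif TGACTCA or its reverse complement TGAGTCA, with its first base 46 and 35 bases before the start, and each held TATAAA, 7 and 16 bases before the start. The AP-1 motif occurs in 2.30% of 32851 RefSeq promoter stretches of this length and TATAAA or its complement in 6.34%. The Mmp14 stretch held the GC box GGGCGG at 19 and 13 bases before the start, and the Timp1 stretch held its complement CCGCCC at 8 bases. A GC box occurs in 26.5% of the stretches. Timp2 and Timp3, whose stretches are not shown, also held a GC box. Neither RefSeq stretch of Mmp23, which was past 2-fold lower in the TS lineage as well, held any of the 3 motifs. No stretch was available here for Mmp2, Mmp9 and Mmp19, of which Mmp9 was also past 2-fold lower in the TS lineage. No motif overlapped another. Mmp3 and Mmp13 lie on the plus strand of chromosome 9, at 7445822 to 7455975 and 7272514 to 7283331, close to each other in a cluster of Mmp genes. These matches describe letters in the sequence and are not evidence of binding. The genes shown were chosen by ratios pooled over the lineage, and that of Mmp13 was not kept in the mean within clusters, given below.

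Fibroblast-lineage cells held most of the transcripts of 8 of the 10 genes in both libraries. With the libraries clustered separately this count was 4. In the TS library 97.8% of all Mmp3 UMIs came from this lineage, and in the NTS library 98.4%. The corresponding shares were 96.9% in TS and 97.6% in NTS for Mmp2, 94.2% in TS and 96.0% in NTS for Mmp13, 95.2% in TS and 96.8% in NTS for Mmp23, and 94.8% in TS and 96.3% in NTS for Timp1. They were lower for Timp2, at 79.3% in TS and 74.7% in NTS, for Timp3, at 67.8% in TS and 75.9% in NTS, and for Mmp14, at 80.8% in TS and 58.9% in NTS. The exceptions were Mmp19, of which macrophages, monocytes and cluster 13 held a large part, and Mmp9, which was mostly outside the lineage.

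**Figure D1:**
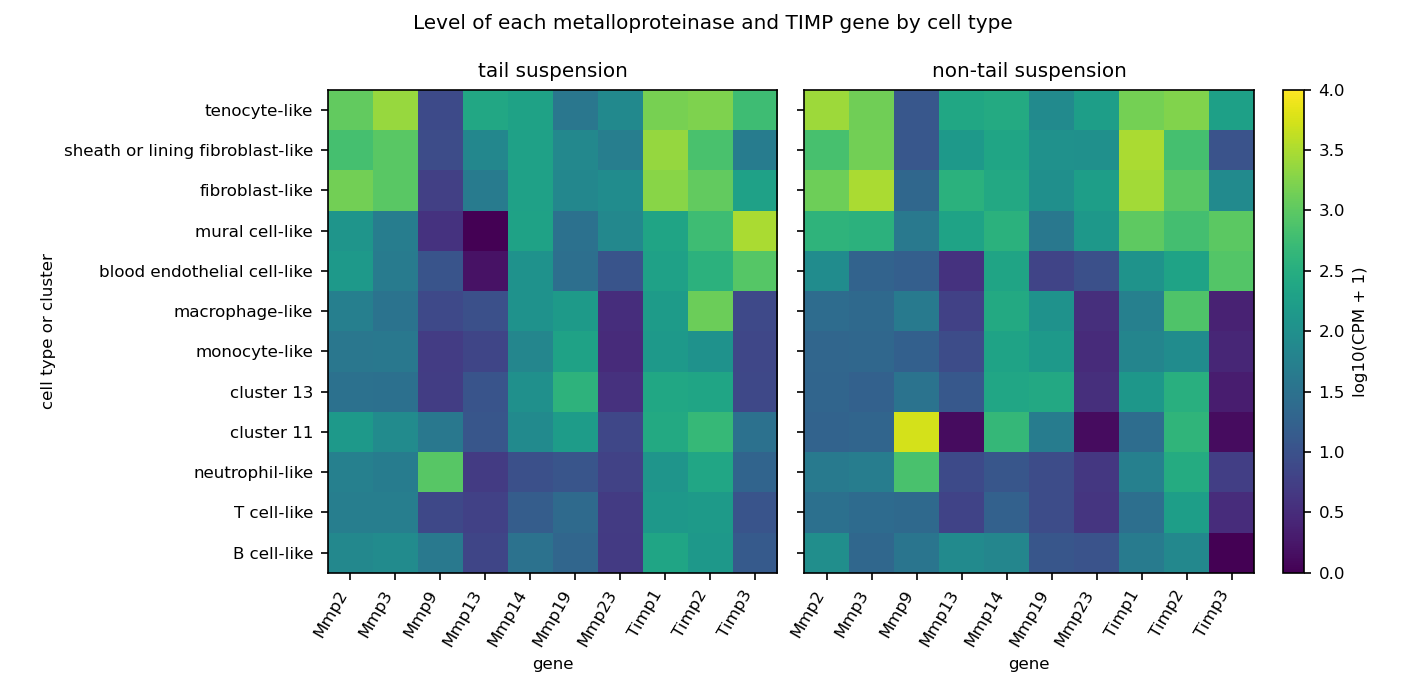
Level of the 10 genes (columns) in each cell type or cluster (rows), as log10(CPM + 1), in the tail suspension library (left) and the non-tail suspension library (right). The lineage rows at the top are bright for Mmp2, Mmp3, Timp1 and Timp2, the neutrophil-like row for Mmp9, and the cluster 11 row for Mmp9 in non-tail suspension, at 5520 CPM.

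Free RNA in the droplets gives UMIs in cells that do not express a gene, and T cell-like cells were used for comparison, which had a median of 3942 UMIs in TS and 5491 UMIs in NTS, against 12403 UMIs in TS and 25130 UMIs in NTS in the lineage. In T cell-like cells Mmp3 stood at 49.6 CPM in TS and 24.1 CPM in NTS, which is 4.65% of its lineage level in TS and 1.09% in NTS. Timp1 stood at 133 CPM in TS and 27.7 CPM in NTS, or 6.66% of the lineage level in TS and 1.25% in NTS. For Mmp9 the T cell-like level was 6.41 CPM in TS and 22.6 CPM in NTS, which is above the 5.54 CPM in TS and 15.8 CPM in NTS of the lineage. The Mmp9 of the lineage was unevenly spread, with 72.6% of its UMIs in TS and 22.6% in NTS held by the top 1% of cells, and its source was not tested. Timp2 in T cell-like cells stood at 14.5% of its lineage level in TS and 13.2% in NTS, a larger share than that of Mmp3 or Timp1. B cell-like cells gave other values. Mmp13 there was 5.74 CPM in TS and 81.9 CPM in NTS, or 8.58% and 28.4% of the lineage level. Mmp14 was 31.5 CPM in TS and 68.2 CPM in NTS, and Timp1 225 CPM in TS and 45.0 CPM in NTS. Mmp3 was 84.1 CPM in TS and 20.5 CPM in NTS. The level of free RNA thus depends on the cells used for comparison. The summed level of 11 neutrophil markers in the lineage was 1215 CPM in TS and 1638 CPM in NTS.

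**Figure D2:**
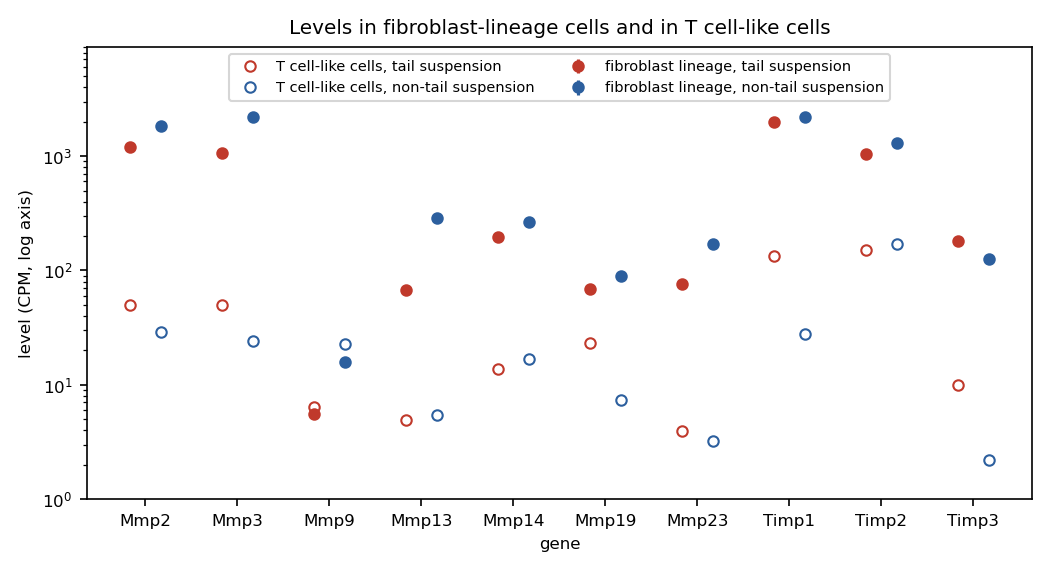
Level of each gene in CPM on a log axis, in fibroblast-lineage cells (filled points) and T cell-like cells (open points) of the tail suspension library (red, left) and the non-tail suspension library (blue, right). Bars are 95% counting intervals, mostly smaller than the points. The filled points lie above the open ones for every gene except Mmp9, and the red filled point is below the blue one for every gene except Timp3.

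Pooled over the lineage, all 7 proteases were lower in the TS library, while the inhibitors differed less and not all in the same direction. Mmp13 averaged 66.9 CPM in TS and 289 CPM in NTS, a log2 ratio of -2.11 (95% counting interval -2.15 to -2.07). The membrane-anchored Mmp23 averaged 76.2 CPM in TS and 169.5 CPM in NTS, a log2 ratio of -1.15 (-1.20 to -1.11). Mmp3 averaged 1067 CPM in TS and 2214 CPM in NTS, a log2 ratio of -1.05 (-1.06 to -1.04). These 3 and Mmp9 were the proteases past 2-fold lower. Leaving out cluster 2, an alternative chosen after the values were seen, brought the log2 ratio of Mmp3 to -0.32, of Mmp13 to -1.51 and of Timp3 to 0.07, and that of Timp1 to 0.032.

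The other proteases of the lineage differed by less than 2-fold. Mmp2 had 1206 CPM in TS and 1850 CPM in NTS, a log2 ratio of -0.62. Its activator Mmp14 had 195.5 CPM in TS and 264 CPM in NTS, a log2 ratio of -0.43. Mmp19 had 68.4 CPM in TS and 90.1 CPM in NTS, a log2 ratio of -0.40. Among the inhibitors, Timp1 was the most abundant member of the family in TS, at 1999 CPM against 2212 CPM in NTS, a log2 ratio of -0.15. Timp2 had 1038 CPM in TS and 1293 CPM in NTS, a log2 ratio of -0.32. Timp3 was the single member with a higher pooled level in TS, at 183 CPM against 126 CPM in NTS, a log2 ratio of 0.54 (0.50 to 0.58).

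Of the 10 members, 0 were past 2-fold higher in TS, against 10.2% of 16472 genes measured in the lineage, and 4 (Mmp3, Mmp9, Mmp13 and Mmp23) were past 2-fold lower, against 6.11% of all genes. The median log2 ratio was -1.05 over the 7 proteases and -0.15 over the 3 inhibitors, beside 0.06 over all genes measured. The 4 include Mmp9, whose lineage level was no higher than that of T cell-like cells. These counts describe 1 pair of libraries and do not show that the family as a whole differed between the conditions.

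Within the lineage the order of the levels was not the same in the 2 libraries. In TS it ran Timp1, Mmp2, Mmp3, Timp2, Mmp14, Timp3, Mmp23, Mmp19, Mmp13 and Mmp9. In NTS Mmp3 and Timp1 shared the top at 2214 and 2212 CPM, closer together than their counting intervals, followed by Mmp2, Timp2, Mmp13, Mmp14, Mmp23, Timp3, Mmp19 and Mmp9. Mmp13 was next to last in TS, and in NTS it stood above Mmp14. In TS, Mmp19 at 68.4 CPM and Mmp13 at 66.9 CPM were close.

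The levels of Mmp3 and Mmp13 were not spread evenly over the lineage. In the fibroblast-like cluster 2, Mmp13 had 225.5 CPM in the 29 TS cells and 530 CPM in the 543 NTS cells, the highest level of the NTS lineage clusters. Mmp3 there had 3609 CPM in TS and 4371 CPM in NTS. Of the 29 TS cells, 1 held 57.8% of the Mmp3 UMIs and 1 held 56.8% of the Mmp13 UMIs. This cluster held 2.31% of all Mmp13 UMIs in TS and 52.0% in NTS, and 2.40% of all Mmp3 UMIs in TS and 57.2% in NTS. In TS the highest levels were in cluster 21, the tenocyte-like cells with Tnmd and Chad among their leading genes, with 3722 CPM of Mmp3 and 365 CPM of Mmp13. The 43 NTS cells of cluster 21 had 1983 CPM of Mmp3 and 94.8 CPM of Mmp13. Few TS cells set these levels. Of the 606 TS cells, the 6 highest for Mmp3 held 31.9% of its UMIs, and the 6 highest for Mmp13 held 71.7%. A UMI of Mmp3 was found in 45.2% of the TS cells and 55.8% of the NTS cells of cluster 21. For Mmp13 the shares were 7.59% in TS and 20.9% in NTS, without correction for depth. The Pi16 cluster 23, in contrast, had little Mmp13, at 2.29 CPM in TS and 1.69 CPM in NTS, and its Mmp3 was 411 CPM in TS and 318 CPM in NTS.

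The named classes of the lineage differed in direction too, but each was made of different clusters in the libraries. Of the tenocyte-like cells, 606 of 748 in TS lay in cluster 21 and 932 of 975 in NTS in cluster 0. In these cells Mmp3 was 2448 CPM in TS and 1355 CPM in NTS, Mmp2 was 1087 CPM in TS and 2583 CPM in NTS, and Mmp13 was 248 CPM in TS and 239 CPM in NTS. Timp3 in tenocyte-like cells was 563.5 CPM in TS and 188 CPM in NTS. In fibroblast-like cells, most of them in clusters 24, 3, 23 and 1 in TS and in cluster 2 in NTS, Mmp3 was 955 CPM in TS and 3108 CPM in NTS, and Mmp13 was 44.8 CPM in TS and 352 CPM in NTS. Mmp2 in fibroblast-like cells was 1431 CPM in TS and 1291 CPM in NTS. Mmp2 and Mmp3 thus had log2 ratios of opposite sign in the 2 classes, while that of Mmp13 in tenocyte-like cells, 0.05 (-0.02 to 0.13), did not differ from 0 beyond counting error. The difference between the classes was not tested.

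**Figure D3:**
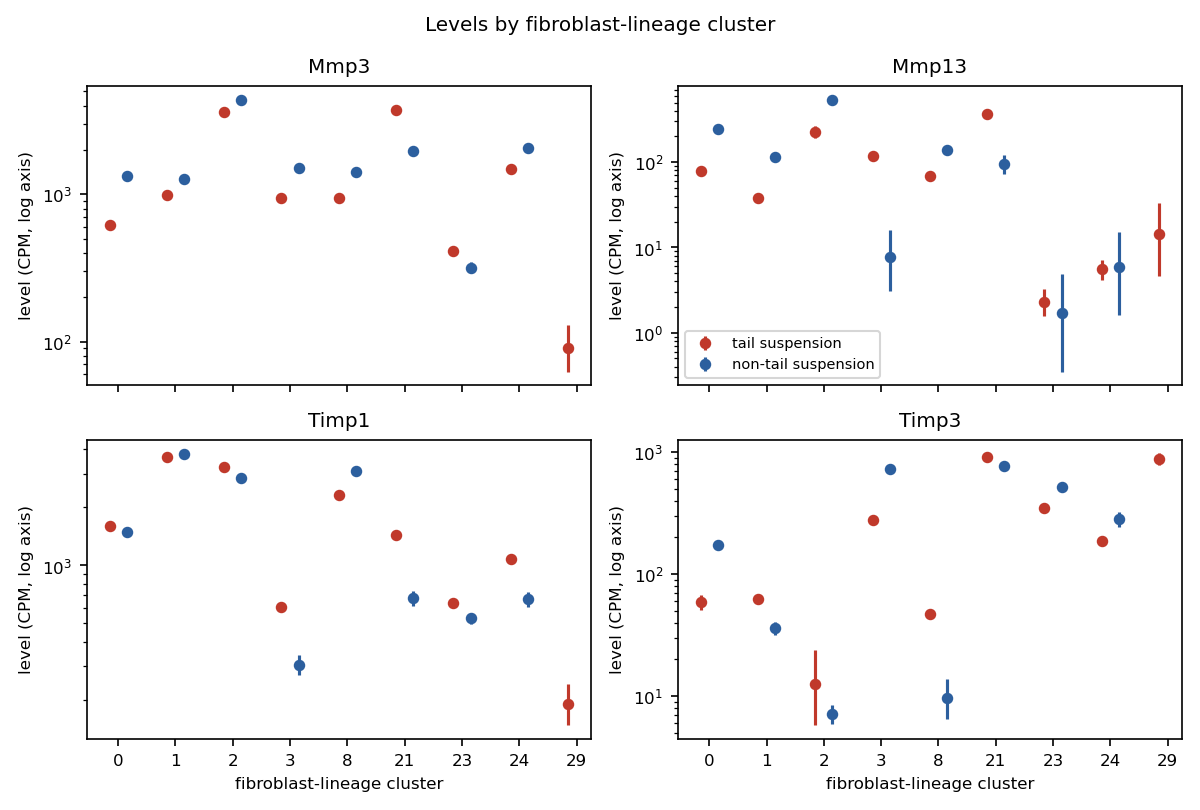
Levels of Mmp3, Mmp13, Timp1 and Timp3 in CPM on a log axis in each fibroblast-lineage cluster with at least 20 cells in the library, in tail suspension (red, left) and non-tail suspension (blue, right), with 95% counting intervals. Mmp3 is highest in clusters 2 and 21 in tail suspension and in clusters 2 and 24 in non-tail suspension. Mmp13 is near 0 in clusters 23 and 24, and Timp1 is highest in clusters 1, 2 and 8.

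Set against the same cluster, the ratios varied in size and sign. 6 lineage clusters had at least 50 cells in both libraries. Mmp3 was lower in TS in 5 of them, with log2 ratios between -1.11 in cluster 0 and -0.38 in cluster 1, and it was higher in cluster 23, at 0.37. Among the 5 was cluster 3, at -0.68, where 1 of 67 NTS cells held 61.7% of the Mmp3 UMIs. Without the UMIs of that cell, Mmp3 in cluster 3 would be higher in TS. Mmp23 was lower in 5 of the 6 and Mmp9 in all 6. For Mmp2 the log2 ratio ran between -0.76 in cluster 0 and 0.38 in cluster 24. For Timp2 it lay between -0.51 and 0.12, the narrowest range of the 10 genes.

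The mean of the log2 ratios within the 6 clusters was -0.48 for Mmp3, against -1.05 in the pooled lineage. It was 0.012 for Mmp13, 0.26 for Timp1 and -0.17 for Timp3, so the pooled direction of these 3 genes was not kept. The mean for Mmp13 hides a wide spread. In cluster 0 Mmp13 had 79.8 CPM in TS and 243 CPM in NTS, a log2 ratio of -1.60, and in cluster 8 it had 69.3 CPM in TS and 141 CPM in NTS, a log2 ratio of -1.02. In cluster 3 it had 119 CPM in TS, against 7.76 CPM in NTS, where the value rests on 5 of 67 cells with a UMI.

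Timp3 was opposite in sign between clusters. In the sheath or lining fibroblast-like cluster 8 it had 46.8 CPM in TS and 9.66 CPM in NTS. In the tenocyte-like cluster 0 it had 58.8 CPM in TS and 172 CPM in NTS, and in cluster 3 it had 275.5 CPM in TS and 722.5 CPM in NTS. Timp1 was higher in TS in cluster 3, at 606 CPM against 305 CPM in NTS, and in cluster 24, at 1084 CPM against 667 CPM in NTS. The difference between clusters was not tested, since each rests on 1 pair of libraries.

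**Figure D4:**
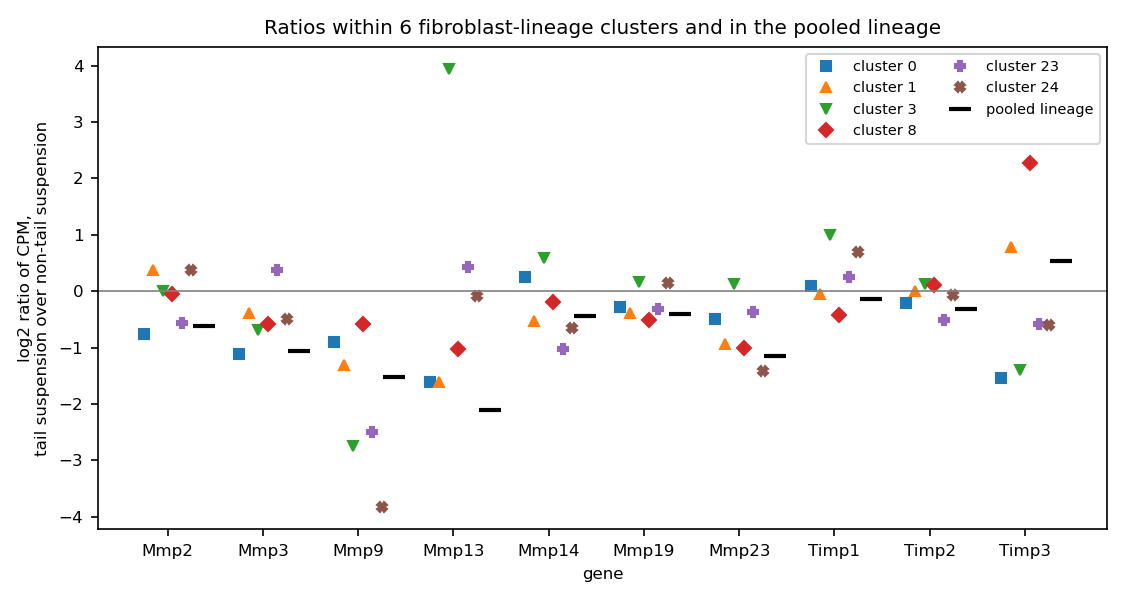
Log2 ratio of CPM, tail suspension over non-tail suspension, for each gene in the 6 lineage clusters with at least 50 cells in both libraries (coloured markers) and in the pooled lineage (black dashes). Points of Mmp3 lie between -1.11 and 0.37, while those of Mmp13 and Timp3 lie on both sides of 0 and reach 3.94 and 2.28.

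Mmp13 was carried by few cells, and these cells held many copies. A UMI of Mmp13 was found in 6.58% of lineage cells in TS and 26.0% in NTS, beside 2.21% of T cell-like cells in TS and 3.48% in NTS. In cells thinned to 1000 UMIs each, with shallower cells left out (6398 TS and 2018 NTS cells remained), the shares in the lineage were 1.92% in TS and 9.37% in NTS. The 1% of lineage cells with the most Mmp13 held 76.6% of its UMIs in TS and 33.1% in NTS, and the highest cell had 493 UMIs in TS and 559 UMIs in NTS. Mmp3 was found in 57.3% of cells in TS and 75.0% in NTS, and the top 1% of cells held 33.6% of its UMIs in TS and 16.0% in NTS. Mmp2 and Timp2 were the most even, with 6.50% and 5.48% of their UMIs in the top 1% of TS cells. Counting intervals do not cover this unevenness between cells.

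Cells with Mmp13 more often had Mmp3 as well. In thinned lineage cells, a UMI of Mmp3 was present in 60.2% of the TS cells with Mmp13 and 26.5% of those without it, and in 64.0% of the NTS cells with Mmp13 and 37.3% of those without it. Timp1 was present in 57.4% of the TS cells with Mmp3 and 42.8% of those without, and in 67.0% of the NTS cells with Mmp3 and 52.2% of those without. Mmp14, which activates the Mmp2 product, was present in 19.3% of TS cells with Mmp2 and 12.4% of those without, and in 25.0% of NTS cells with Mmp2 and 17.1% of those without. These shares are over cells of 1 library each and are given as a description.

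The protease to inhibitor balance was the summed UMIs of the 7 proteases over those of the 3 inhibitors. It compares captured transcripts, not active enzymes with bound inhibitors. In the fibroblast lineage it was 0.834 (0.830 to 0.839) in TS, below 1, and 1.35 (1.34 to 1.36) in NTS, above 1, which is a log2 ratio of -0.69. Mmp2 and Timp1 made up 44.9% of the protease UMIs and 62.1% of the inhibitor UMIs in TS. In NTS Mmp3 made up 45.3% of the protease UMIs and Timp1 60.9% of the inhibitor UMIs. Leaving out the most abundant protease of each library gave 0.460 in TS and 0.738 in NTS, and leaving out Timp1 gave 2.20 in TS and 3.45 in NTS. The TS balance was not below 1 under every alternative. It was 1.04 with doublets kept, 1.03 at resolution 2.0 and 1.02 with the libraries clustered separately, beside 1.51, 1.49 and 1.42 in NTS.

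The direction of the balance was shared by the 6 lineage clusters with at least 50 cells in both libraries, but the size was not. It did not hold under every leave-out. Without the most abundant protease of each library the balance was 0.3465 in TS and 0.3381 in NTS in cluster 8. In cluster 23 it was then 0.3221 in TS and 0.3001 in NTS. Without the most abundant inhibitor it was 4.688 in TS and 4.367 in NTS in cluster 3. In the other cases the direction was kept. Of the 4048 protease UMIs of cluster 3 in NTS, 845 were Mmp3 UMIs of 1 cell. Without these 845 UMIs the NTS balance of cluster 3 would lie below its TS balance, so the direction there rests on that cell. The log2 ratio of the balance was -0.67 in cluster 0 and -0.35 in cluster 24, and it lay between -0.21 and -0.11 in clusters 1, 3, 8 and 23. Their mean was -0.26. Of the 3 clusters with fewer cells, cluster 2 had a balance of 1.30 in TS and 1.82 in NTS. Of its 4158 protease UMIs in TS, 1498 were Mmp3 UMIs of 1 cell. The tenocyte-like cluster 21 had 1.20 in TS and 0.998 in NTS, and cluster 29 had 1.56 in TS and 1.49 in NTS. Cluster 29 had 7 cells in NTS, and its intervals overlap. As a mean over cells the order turned in both, to 0.860 in TS and 0.910 in NTS in cluster 21. In cluster 29 it was then 1.49 in TS and 1.55 in NTS. Between clusters of the same library the balance differed more than between libraries, with 0.478 in the Timp1-rich cluster 1 and 1.59 in cluster 3 of TS.

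**Figure D5:**
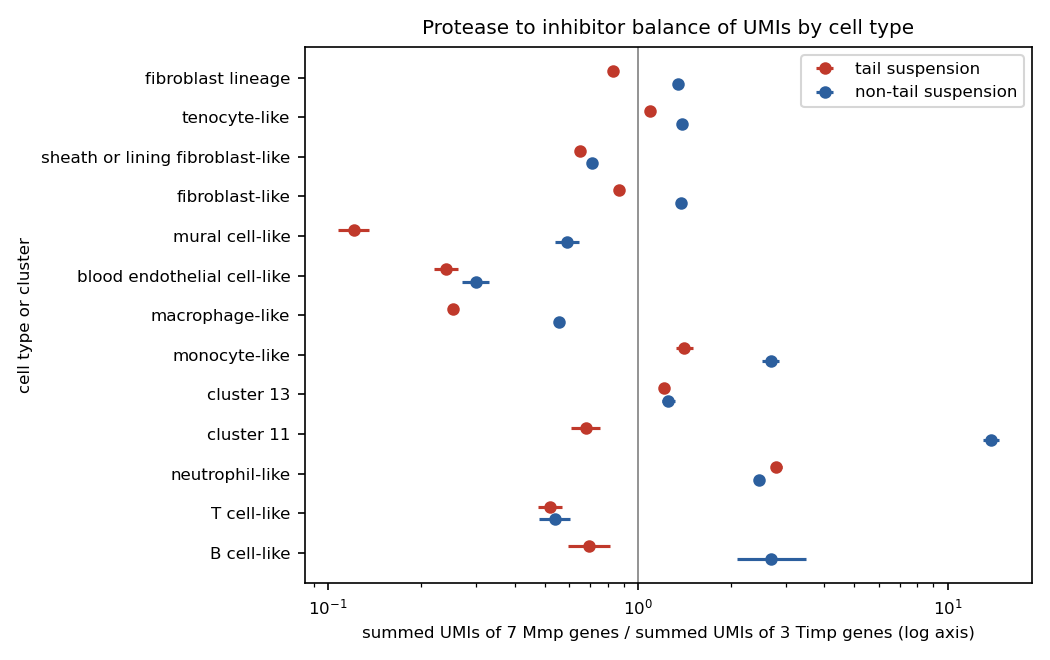
Summed UMIs of the 7 proteases over summed UMIs of the 3 inhibitors, on a log axis, by cell type in tail suspension (red, above) and non-tail suspension (blue, below), with 95% counting intervals; the grey line marks 1. The fibroblast lineage sits at 0.834 in tail suspension and 1.35 in non-tail suspension, on either side of the line, macrophage-like and vascular cells lie below it in both libraries, and neutrophil-like cells lie above it in both.

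Outside the lineage the balance differed widely between cell types. It was low in vascular cells, at 0.0861 in TS and 0.0916 in NTS in lymphatic endothelial cell-like cells, and at 0.240 in TS and 0.300 in NTS in blood endothelial cell-like cells. Mural cell-like cells had 0.121 in TS and 0.592 in NTS. Macrophage-like cells had 0.254 (0.245 to 0.262) in TS and 0.556 (0.540 to 0.572) in NTS, but the class lay mostly in cluster 9 in TS and in cluster 10 in NTS. Cluster 9 had 0.243 in TS and 0.452 in NTS, and cluster 10 had 0.634 (0.548 to 0.733) in TS and 0.565 (0.549 to 0.582) in NTS, where the intervals overlap. Monocyte-like cells were above 1, at 1.41 in TS and 2.69 in NTS, and neutrophil-like cells had 2.80 in TS and 2.46 in NTS. Within neutrophil-like clusters the direction was the other way, with 2.06 in TS and 3.15 in NTS in cluster 7 and 4.22 in TS and 5.20 in NTS in cluster 12. With doublets kept the class had 2.36 in TS and 2.42 in NTS, after thinning 2.42 in TS and 2.43 in NTS, and as a mean over cells 2.29 in TS and 2.45 in NTS. T cell-like cells had 0.519 in TS and 0.539 in NTS, and Timp2 made up 51.2% of their inhibitor UMIs in TS and 85.1% in NTS.

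Timp3 had its highest levels in vascular cells. In mural cell-like cells, the contractile cells around vessels, it reached 3127 CPM in TS and 997 CPM in NTS, over 105 TS and 37 NTS cells. The lymphatic endothelial cell-like cells had 3468 CPM in TS and 1710 CPM in NTS, the second over 10 cells only. In blood endothelial cell-like cells the levels were close, at 881 CPM in TS and 849 CPM in NTS. In mural cell-like cells Mmp3 had 47.8 CPM in TS and 375 CPM in NTS, and Timp1 had 214.5 CPM in TS and 1011 CPM in NTS, and the part of RNA from lineage cells in this was not tested. Timp1 and Timp3 lie inside Syn1 and Syn3 on the opposite strand, and whether counting used strand is not given in the sources used here. Syn1 had 367 UMIs in all TS cells and 210 in all NTS cells, and Syn3 had 767 in TS and 165 in NTS.

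In macrophage-like cells Timp2 was the most abundant member, and Timp2 and Mmp14 differed in opposite directions between the libraries. Timp2 had 1256 CPM in TS and 791 CPM in NTS, a log2 ratio of 0.67. Mmp14 had 109 CPM in TS and 266 CPM in NTS, a log2 ratio of -1.28, well above the T cell-like 13.9 CPM in TS and 16.7 CPM in NTS. Mmp19 had 148 CPM in TS and 107 CPM in NTS. In this class scaling by the median of the ratios of all genes moved log2 ratios by 0.27, and relative to that shift the log2 ratios were 0.39 for Timp2, -1.56 for Mmp14 and 0.19 for Mmp19.

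Past 2-fold in macrophage-like cells were 3 members higher in TS (Mmp2, Timp1 and Timp3), against 16.8% of 12225 genes, and 2 lower (Mmp9 and Mmp14), against 4.44%. The T cell-like levels of the higher ones are given beside them. Timp1 was 156 CPM in TS and 54.8 CPM in NTS, beside 133 CPM in TS and 27.7 CPM in NTS in T cell-like cells, and Timp3 was 6.51 CPM in TS and 1.44 CPM in NTS, beside 9.93 CPM in TS and 2.21 CPM in NTS. Mmp2 was 52.7 CPM in TS and 24.7 CPM in NTS, beside 50.3 CPM in TS and 29.0 CPM in NTS in T cell-like cells, with a log2 ratio of 0.82 relative to the shift. Almost all of the class lay in different clusters, with 1026 of the TS cells in cluster 9, rich in Mrc1 and Cd163, and 1043 of the NTS cells in cluster 10, rich in MHC class II genes. In cluster 9 Mmp14 had 103 CPM in TS and 196 CPM in NTS, and Timp2 1301 CPM in TS and 1287 CPM in NTS. In cluster 10 Mmp14 had 202.5 CPM in TS and 269 CPM in NTS, and Timp2 568 CPM in TS and 766 CPM in NTS. Within both clusters Mmp14 was lower in TS. Timp2 was close in cluster 9 and lower in TS in cluster 10, unlike in the class as a whole.

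Among cell types and unnamed clusters, Mmp19 had its highest levels in cluster 13 and monocyte-like cells. Cluster 13, led by MHC class II genes and Arg1 and left unnamed, had the highest of these levels, with 389 CPM in TS and 262 CPM in NTS. It held 33.0% of the Mmp19 UMIs of TS and 17.0% of those of NTS. Monocyte-like cells had 202 CPM in TS and 141 CPM in NTS. Mmp14 went the other way in both, with 102 CPM in TS and 232 CPM in NTS in cluster 13, and 68.5 CPM in TS and 209 CPM in NTS in monocyte-like cells. Of the 10 members in monocyte-like cells, 2 (Timp1 and Timp3) were past 2-fold higher in TS, against 7.99% of 10795 genes, and 2 (Mmp9 and Mmp14) past 2-fold lower, against 4.73%. Timp1 at 141 CPM in TS and 66.1 CPM in NTS was again close to the T cell-like level in TS.

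Mmp9 was a neutrophil gene in TS and was shared between neutrophils and another cell in NTS. Neutrophil-like cells held 87.5% of its UMIs in TS and 43.1% in NTS. Their level was 899 CPM in TS and 722 CPM in NTS, with a UMI in 75.1% of TS and 74.9% of NTS cells. The log2 ratio was 0.32, or 0.17 relative to the 0.14 shift of all genes in this class. In the clusters with over 100 cells in both libraries, Mmp9 had 954 CPM in TS and 1437 CPM in NTS in cluster 7, and 888 CPM in TS and 803 CPM in NTS in cluster 12, which is rich in granule genes such as Camp and Ltf. Most TS neutrophil-like cells lay in these 2 clusters. Most NTS neutrophil-like cells lay in clusters 5 and 6, with 678 CPM and 759 CPM of Mmp9 in NTS. In neutrophil-like cells 2 members (Timp1 and Timp3) were past 2-fold higher in TS, against 17.0% of 11205 genes, and 0 past 2-fold lower, against 13.7%. Timp1 in these cells was 121 CPM in TS and 53.5 CPM in NTS, beside 133 CPM in TS and 27.7 CPM in NTS in T cell-like cells, and Timp3 was 18.3 CPM in TS and 4.62 CPM in NTS.

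The second source of Mmp9 was cluster 11, which held 48.6% of its UMIs in NTS. Acp5 and Ctsk, genes of bone-resorbing osteoclasts, led this cluster, but fewer than 3 osteoclast markers were among its top genes and it stays unnamed. Mmp9 had 38.9 CPM in the 374 TS cells of the cluster and 5520 CPM in the 152 NTS cells. Cells with at least 4 of 7 such markers, a limit chosen after the values were seen, numbered 4 in TS and 63 in NTS, of which 52 lay in cluster 11. These cells had a median of 25125.5 UMIs in TS and 40354 UMIs in NTS. Cluster 11 over both libraries had a median of 1741.5 UMIs. The limit needs markers to be detected, so the numbers of cells depend on depth. In TS 1 of the 4 had a UMI of Mmp9, and in NTS 60 of the 63, at a level of 6095 CPM. The 63 NTS cells had 481.5 CPM of Mmp14, the highest level of that gene, and 378 CPM of Timp2, while Timp1 stood at 14.3 CPM. Mmp19 stood at 1420 CPM in the 4 TS cells, from 140 UMIs in 3 of them, and at 27.4 CPM in the 63 NTS cells. The TS value lies above the 389 CPM of cluster 13 in TS. With 4 such cells in TS, the levels of Mmp9 and Mmp19 in these cells could not be compared.

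The genes that act with the family were described in the fibroblast lineage from lists chosen by function. Of 10 measured other Mmp genes, 5 were higher and 5 lower in TS, with a median log2 ratio of -0.05. They were scarce beside the members, the highest being Mmp11 at 18.8 CPM in TS and 18.1 CPM in NTS. The neutrophil collagenase Mmp8 was found in neutrophil-like cells at 904 CPM in TS and 677 CPM in NTS, and the membrane-anchored Mmp25 there at 103 CPM in TS and 48.0 CPM in NTS. Mmp12, macrophage elastase, had 121 CPM in TS and 95.3 CPM in NTS in cluster 13. Mmp1a was not used here.

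Of 6 other inhibitors and clearance genes in the lineage, 4 were higher and 2 lower. Lrp1, the endocytic receptor that clears protease and inhibitor complexes, had 929 CPM in TS and 800 CPM in NTS. Serpine2, protease nexin-1, had 484 CPM in TS and 256 CPM in NTS. Timp4 had the largest ratio, with 247 UMIs in TS and 2 in NTS, a log2 ratio of 6.12 (4.25 to 9.17). Of 6 measured activators of the precursors, 3 were higher and 3 lower. Plau, urokinase, had 264.5 CPM in TS and 171 CPM in NTS, and the convertases Pcsk5 and Furin had 198 CPM and 113 CPM in TS, against 239 CPM and 72.3 CPM in NTS. Pcsk6 had the largest ratio of this list, a log2 ratio of 1.65.

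The most abundant aggrecanase genes had higher levels in the TS lineage. Adamts5 had 459 CPM in TS and 286 CPM in NTS, and Adamts1 had 439 CPM in TS and 228 CPM in NTS. Of the 9 Adamts genes listed, 4 were higher and 5 lower, with Adamts8, at a log2 ratio of -1.75, the widest. By cluster, the median log2 ratio of this list lay between -0.19 in cluster 0 and 0.42 in cluster 8. Adamts2, a procollagen proteinase, had 185 CPM in TS and 209 CPM in NTS. Of 8 AP-1 genes, which encode factors that bind the motif shown above, 2 were higher and 6 lower, with a median log2 ratio of -0.29. Their median by cluster lay between -0.68 in cluster 0 and 0.26 in cluster 23. Fos had 2143 CPM in TS and 2520 CPM in NTS, Fosb had 1670 CPM in TS and 2116 CPM in NTS, and Junb had 1136 CPM in TS and 1739 CPM in NTS. Jund had the widest log2 ratio, -1.29.

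Of 10 inducers of metalloproteinases and their receptors, 4 were higher and 6 lower in the lineage, with a median log2 ratio of -0.61. By cluster, the median lay between -0.90 in cluster 0 and 0.26 in cluster 24. Bsg, an inducer of metalloproteinases on the cell surface, had 381 CPM in TS and 691 CPM in NTS. Il1r1, the receptor of interleukin-1, had 177.5 CPM in TS and 174 CPM in NTS, and Tnfrsf1a, a receptor of tumour necrosis factor, had 108 CPM in TS and 183.5 CPM in NTS. Il1b had the widest log2 ratio of the list, -2.23, at a level of 27.4 CPM in TS and 128.5 CPM in NTS. Most Il1b was outside the lineage, and neutrophil-like cells had 1431 CPM in TS and 8803 CPM in NTS. The part of free RNA from these cells in the lineage value was not tested.

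Of 8 substrate genes, 3 were higher and 5 lower in TS in the pooled lineage, with a median log2 ratio of -0.83. Their median by cluster lay between -0.70 in cluster 23 and 0.24 in cluster 3, so the pooled direction was not kept in every cluster. Col3a1 had 10546 CPM in TS and 18798 CPM in NTS. Col1a1, the main collagen chain of tendon, had 5223 CPM in TS and 14177 CPM in NTS, and Col1a2 had 7050 CPM in TS and 12578 CPM in NTS. Col2a1, the collagen of cartilage, had the widest log2 ratio, -2.46, at 23.6 CPM in TS and 130 CPM in NTS. Of 6 genes of collagen uptake and lysosomal proteolysis, 1 was higher and 5 lower, led by Ctsl at 1626 CPM in TS and 1540 CPM in NTS, Ctsb at 797 CPM in TS and 1034 CPM in NTS, and Ctsk at 642 CPM in TS and 823 CPM in NTS. Ctss had the widest log2 ratio of that list, -0.81.

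The genes whose level went most closely with each member were sought over 13 cell types in 2 libraries, 26 points that share depth and free RNA within a library. Mmp2 went with Bgn, Lum and Col3a1, each at a Pearson correlation of 0.99 on the log2(CPM + 10) scale. Mmp3 went with Ltbp2 (0.98), Chl1 and Ptgfr, and Mmp13 with Ecrg4 (0.937) and P4ha3. Mmp23 went with Gpr153 (0.991), Islr and Gpx8, Timp1 with Htra3 (0.961), Ccdc80 and Sdc2, and Timp3 with Peg3 (0.973), Map1b and Ltbp4. Correlations were weaker for Mmp14, led by Aig1 (0.919), for Mmp19, led by Arhgef10l (0.892), for Mmp9, led by Rufy4 (0.889), and for Timp2, led by Itsn1 (0.860). Among the members the closest pair was Mmp2 and Mmp23, at 0.962, followed by Mmp2 and Mmp3 at 0.919. These values describe the sharing of cell types and carry no test.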

How the data were processed

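Raw UMI counts per gene and barcode were used as deposited by the authors, and the submitters' processing notes list GRCm38 as build and Cell Ranger, version 5.0.1, as tool, with no role given. The matrix header names software version 3.1.0, and whether the libraries were brought to equal depth is not given in the sources used here. The tail suspension library held 15545 barcodes with 166606774 UMIs and the non-tail suspension library 11430 with 121868851, each barcode with at least 500. Barcodes under 300 genes or over 20% mitochondrial UMIs were dropped. Doublets were called with Scrublet in scanpy 1.11.5. Its automatic threshold, 0.386 in tail suspension, failed in non-tail suspension (0 calls at 0.776), so 0.386 served both and removed 492 cells (3.40%) in tail suspension and 128 (1.17%) in non-tail suspension. The expected rates were 12.4% in tail suspension and 9.14% in non-tail suspension, so doublets may remain.

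Both libraries were clustered together without integration, on 2000 variable genes without protease and inhibitor genes, 30 components, 15 neighbours and Leiden resolution 1.0 (igraph 0.11.9). A cluster was named where at least 3 markers of a class were among its top 50 genes by fold and no other class had more among the top 10. These names were rebuilt here and may differ from the authors' own. Counts were summed per cell type and library, with exact Poisson intervals for levels, exact conditional binomial intervals for ratios and balances and Clopper-Pearson intervals for shares (scipy 1.17.1). A gene was measured where it had at least 20 UMIs over both libraries in a cell type. Ratios were given for classes with at least 100 cells and clusters with at least 50 cells in both libraries. The ratio intervals were tested on simulated Poisson counts summed per library, which hold no unevenness between cells. Clustering and naming were not simulated. All 10 members were named, and of the other lists the 3 genes with the highest CPM and the 1 with the widest log2 ratio; other genes named are leading genes of clusters or were chosen after their values were seen. Some genes that this rule or the correlations select are not reported here. The members and lists were chosen with earlier results of these data known.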

Additional observations from a re-analysis of the deposited data

Results flagged for a closer look

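Mmp13 differed in opposite directions between fibroblast-lineage clusters. Its log2 ratio (tail suspension divided by non-tail suspension) was 3.94 in cluster 3 and -1.61 in cluster 1. In cluster 3, 86 of 1120 tail suspension cells (7.68%) had a UMI of Mmp13, against 5 of 67 non-tail suspension cells (7.46%). The mean in those cells was 19.6 UMIs in tail suspension and 1.40 UMIs in non-tail suspension. The 11 highest tail suspension cells of cluster 3 held 64.7% of its Mmp13 UMIs. In cluster 1 the 9 highest of 878 tail suspension cells held 64.2%, and the 2 highest of 182 non-tail suspension cells held 51.6%. Few cells thus set both ratios. Timp3 also had opposite signs, with a log2 ratio of 2.28 in cluster 8 and -1.55 in cluster 0. In cluster 8, 259 of 1211 tail suspension cells had a UMI of Timp3, against 9 of 94 non-tail suspension cells. The difference between clusters was not tested, because each condition has 1 library.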

How the results depend on the processing

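No paired analysis was possible because each condition has 1 library. Under all alternatives run, 8 or 9 of the 10 members were lower in the lineage in tail suspension, and the log2 ratio of the balance, -0.69 as reported, stayed below 0. It was -0.65 without Timp1, -0.60 with at least 1000 genes per cell, -0.54 with doublets kept, -0.53 at resolution 2.0, -0.48 with the libraries clustered separately, -0.73 with protease genes allowed in the clustering, -0.62 after thinning to 1000 UMIs and -0.64 as a mean over cells. Alternatives chosen after seeing the data gave -0.26 as the mean within clusters and -0.45 without cluster 2. With the libraries clustered separately, 4 rather than 8 members had most of their UMIs in the lineage in both. In the lineage the mean within clusters turned the log2 ratio of Mmp13 to 0.012, of Timp1 to 0.26 and of Timp3 to -0.17, and leaving out cluster 2 turned that of Timp1 to 0.032. Elsewhere Mmp13 turned to -0.00063 in macrophage-like cells at resolution 0.5 and to 0.035 in thinned neutrophil-like cells, and Timp2 to -0.97 in monocyte-like cells with protease genes allowed and to 0.054 in neutrophil-like cells with doublets kept. Timp3 in thinned monocyte-like cells gave no value, since no UMI was left in non-tail suspension. The causes were not tested. Depth limits the small clusters, where a few cells set the value of Mmp13. In cluster 3 of non-tail suspension and cluster 2 of tail suspension, 1 cell held most of the Mmp3 UMIs.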

Other observations

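Cluster 22, left unnamed and led by Hbb-bs and collagen genes, held 437 cells in tail suspension with a median of 1868 UMIs and 100 cells in non-tail suspension with a median of 1282 UMIs. It was not counted in the fibroblast lineage. It had a balance of 0.554 in tail suspension and 0.896 in non-tail suspension. Mmp2 stood at 248 CPM in tail suspension and 756 CPM in non-tail suspension, and Timp1 at 442 CPM in tail suspension and 992 CPM in non-tail suspension. Granulocyte progenitor-like cells, the precursors of neutrophils, had 73.3 CPM of Mmp9 in tail suspension and 97.5 CPM in non-tail suspension, over 95 cells in tail suspension and 90 in non-tail suspension, far below the level of neutrophil-like cells.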
